A study of Homo sapiens with 9 samples.

Results

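The genes followed encode 7 restraints of the growth kinase complex mTORC1: the sestrins SESN1, SESN2 and SESN3, then DDIT4, DEPTOR, TSC1 and TSC2. They were chosen by gene symbol, and all 7 had a probe set that carries their symbol alone, among 14232 genes measured that way. Total RNA came from HEK293, a human embryonic kidney line transformed with adenovirus DNA, whose viral proteins bind p53. The cells had been transfected for 48 h with siRNA against DBC1 (siDBC1, 3 arrays), siRNA against ZNF326 (siZNF326, 3 arrays) or control siRNA (siCTR, 3 arrays), in a medium with serum and glutamine, and were hybridised to Affymetrix whole-transcript arrays. DBC1 is the protein of CCAR2, and with ZNF326 it forms a complex studied for its role at RNA polymerase II. The design gives 3 independent experiments per siRNA. Both siRNAs are compared with the same 3 siCTR arrays, so the 2 comparisons share their control values. Every level below is a log2 expression value made by RMA, and every difference is in log2 units.

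mTORC1 drives protein synthesis and growth when amino acids and growth factors are plentiful, and it sits on the lysosome. Growth factor signals reach it through the GTPase RHEB, which the TSC1–TSC2 complex switches off, and DDIT4 (also called REDD1) acts through that complex. Amino acid signals reach it through the Rag GTPases, which the sestrins restrain by binding GATOR2, SESN2 as a leucine sensor. DEPTOR binds the kinase mTOR itself. SESN1 is a classical target of p53, SESN3 of the FOXO factors, and SESN2 and DDIT4 are also raised by ATF4, the factor of the amino acid and integrated stress response, with DDIT4 also responding to hypoxia and glucocorticoids. The arrays measured transcripts only, and the activity of mTORC1 was not measured. In RNA from whole cultures, fewer cells with a transcript and less of it per cell cannot be told apart.

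The check of the siRNA targets comes first. CCAR2 read 6.50, 6.54 and 6.65 in siDBC1, against 7.67, 7.67 and 7.84 in siCTR, and passed the test (difference −1.16, SE 0.079, limma adjusted p = 0.0116). ZNF326 read 6.12, 5.56 and 5.81 in the arrays labelled siZNF326, against 5.25, 5.64 and 5.76 in siCTR, so its transcript was not seen to be lower there. The name siZNF326 is therefore a label of arrays below. Of 8 genes listed as HEK293 markers, 7 lay above the array median on all 9 arrays (NEFM was the exception). Of 12 measured markers of fibroblasts, blood cells, hepatocytes and keratinocytes, COL1A1 and KRT14 did so. Correlations between arrays ran from 0.953 to 0.988 across probe sets, which are not independent replicates. Array medians differed: siDBC1 replicate 2 was lowest at 5.58, and siZNF326 replicate 1 at 5.90 and siDBC1 replicate 3 at 5.89 were highest, against 5.67 to 5.78 in siCTR. The number of arrays limits the precision. The p values set a difference of means against the spread between arrays within groups, which limma moderates over all probe sets.

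The upstream stretches below show where letters of motifs known for ATF4, hypoxia and p53 were found beside 3 members. They are the 250 bases before a transcription start from RefSeq, build GRCh38.p14, 5′ to 3′ on the gene's strand. Shown are the gene farthest below siCTR after both siRNAs (DDIT4) and the gene farthest above it in siZNF326 (SESN1). Also shown is the gene with the narrowest intervals on the deposited values (TSC2). Capitals mark matches.
DDIT4, chr10:72273674-72273923, plus strand: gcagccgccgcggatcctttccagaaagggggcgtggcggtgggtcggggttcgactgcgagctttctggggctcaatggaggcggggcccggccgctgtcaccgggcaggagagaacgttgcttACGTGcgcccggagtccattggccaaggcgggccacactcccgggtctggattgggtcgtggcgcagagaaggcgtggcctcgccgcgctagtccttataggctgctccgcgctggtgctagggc
SESN1, chr6:109008989-109009238, minus strand: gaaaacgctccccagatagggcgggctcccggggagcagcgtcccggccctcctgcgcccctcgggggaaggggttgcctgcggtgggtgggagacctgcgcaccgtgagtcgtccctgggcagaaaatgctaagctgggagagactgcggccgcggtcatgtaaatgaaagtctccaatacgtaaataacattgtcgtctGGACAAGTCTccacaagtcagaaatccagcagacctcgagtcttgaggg
TSC2, chr16:2047735-2047984, plus strand: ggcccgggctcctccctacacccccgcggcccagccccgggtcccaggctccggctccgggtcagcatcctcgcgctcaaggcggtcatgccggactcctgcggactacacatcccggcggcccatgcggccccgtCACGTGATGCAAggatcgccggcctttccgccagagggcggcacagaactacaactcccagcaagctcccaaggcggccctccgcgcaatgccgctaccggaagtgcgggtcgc

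The search covered both strands for 4 motifs in each window the table holds for a member: 3 starts for SESN1, 2 for TSC2 and 1 each for SESN2, SESN3, DDIT4 and TSC1. The core of the hypoxia element, ACGTG, stands in DDIT4 from 125 to 121 bases before the start and is found in 18.5% of all 35116 windows of that length. The p53 half-site (10 letters) stands in SESN1 from 49 to 40 bases before 1 of its 3 starts and is found in 5.57% of windows. The ATF4-type element TGATGNAA stands in TSC2 from 110 to 103 bases before 1 of its 2 starts and is found in 3.14% of windows. It overlaps there with matches to ACGTG on both strands. TGATGNAA matched in no window of DDIT4 or SESN2. The FOXO letters GTAAACA, found in 2.98% of windows, matched in none of the members' windows that were searched. No window of DEPTOR was searched. A match is a description of letters, not of binding.

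DDIT4 showed the widest separation of the 7 genes from siCTR after both siRNAs. It read 7.32, 6.91 and 7.32 in siDBC1, 7.40, 7.07 and 7.16 in siZNF326, and 8.04, 8.39 and 8.24 in siCTR (probe set 3251393). All 6 siRNA arrays lay below all 3 control arrays, and the siRNA groups overlapped each other. The level averaged 7.18 ± 0.23 in siDBC1 and 8.22 ± 0.18 in siCTR (SD, n = 3 each), a difference of −1.04 (SE 0.15, 95% interval −1.39 to −0.68) or 2.05-fold. In siZNF326 it averaged 7.21 ± 0.17 (SD, n = 3), a difference from siCTR of −1.01 (SE 0.15, 95% interval −1.36 to −0.66) or 2.02-fold.

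Neither difference passed over all 22011 probe sets. The limma adjusted p was 0.138 in siDBC1 and 0.0743 in siZNF326 (unadjusted p = 0.000163 and 0.000192). The outcome turned on the scaling. The adjusted p of DDIT4 was 0.0168 and 0.00570 after quantile normalization, and 0.0187 and 0.00798 with each array centred on its median, in siDBC1 and siZNF326 in that order. In siZNF326 it also passed when the lower part of the probe sets was left out (0.0382) and without siDBC1 replicate 2 (0.0399). The size moved less: over 15 alternative settings the difference lay between −1.13 and −0.90 in siDBC1 and between −1.14 and −0.93 in siZNF326. Between siZNF326 and siDBC1 it differed by 0.025 (95% interval −0.33 to 0.38, limma adjusted p = 0.970), with a sign that turned to −0.12 after quantile normalization.

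**Figure D1:**
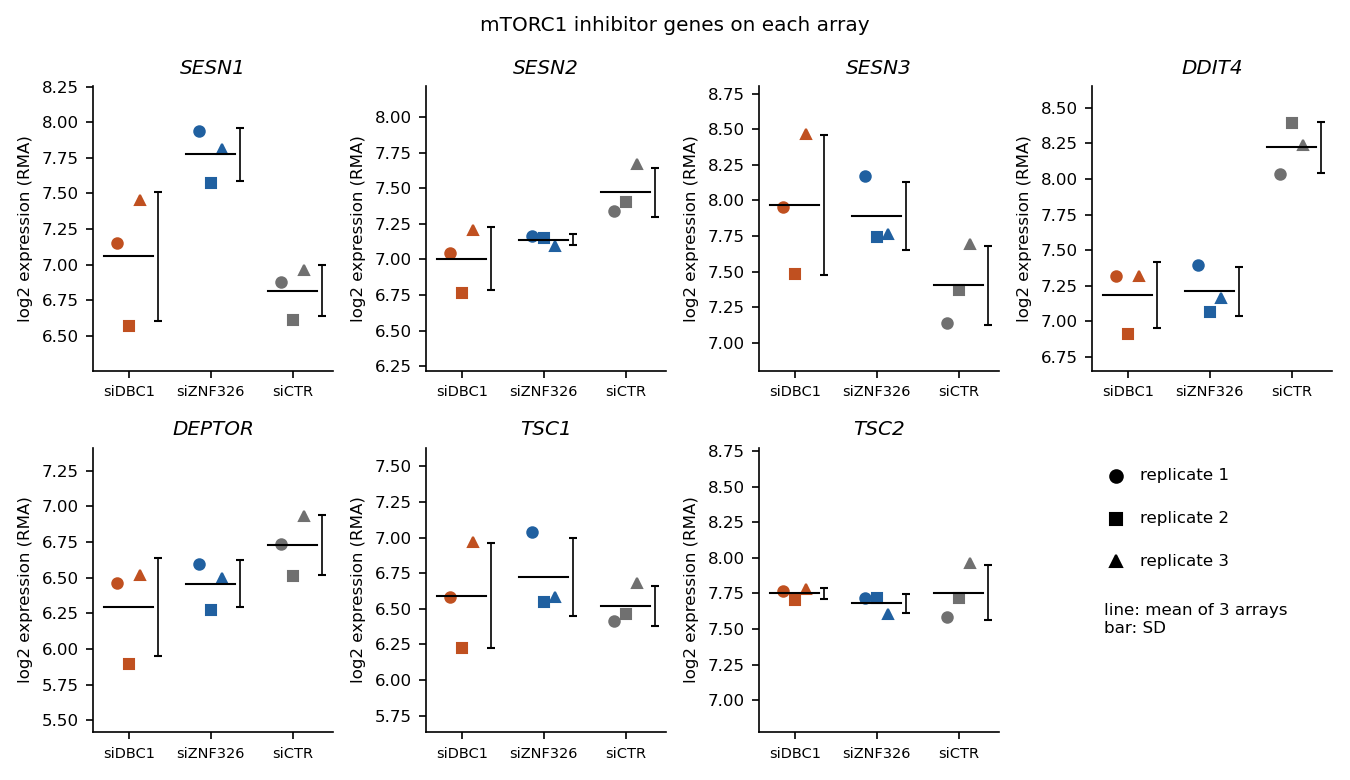
Log2 expression (RMA) of the 7 genes on the y axis of each panel, for siDBC1, siZNF326 and siCTR, with 1 point per array shaped by replicate number, a line at the mean of 3 arrays and a bar for the SD. Each y axis spans the same number of log2 units. DDIT4 lies between 6.91 and 7.40 on the 6 siRNA arrays and between 8.04 and 8.39 in siCTR, and siDBC1 replicate 2 is the lowest siDBC1 point in all 7 panels.

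SESN2 lay below siCTR after both siRNAs, by less. SESN2 encodes a leucine-binding sestrin. It read 7.04, 6.77 and 7.20 in siDBC1, 7.17, 7.15 and 7.09 in siZNF326, and 7.34, 7.40 and 7.67 in siCTR (probe set 2327391). Again no siRNA array reached the lowest control array. The SD was 0.22 in siDBC1 and 0.17 in siCTR (n = 3 each), and the means differed by −0.47 (SE 0.13, 95% interval −0.77 to −0.16) or 1.38-fold, which did not pass (limma adjusted p = 0.568, unadjusted p = 0.00820). In siZNF326 the mean was 7.14 ± 0.039 (SD, n = 3), a difference of −0.33 (SE 0.13, 95% interval −0.64 to −0.026) or 1.26-fold (limma adjusted p = 0.536, unadjusted p = 0.0367). The difference in siZNF326 was −0.23 without siCTR replicate 3, the highest control array. Between siZNF326 and siDBC1 the difference was 0.13 (95% interval −0.17 to 0.44, limma adjusted p = 0.815), with 0.014 without siDBC1 replicate 2 and 0.23 without siDBC1 replicate 3.

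SESN1 stood apart in siZNF326. SESN1 is the sestrin known first as a p53 target. It read 7.94, 7.58 and 7.81 in siZNF326, 7.15, 6.57 and 7.46 in siDBC1, and 6.88, 6.61 and 6.96 in siCTR (probe set 2968652). The siZNF326 arrays lay above every array of both other groups, while siDBC1 and siCTR overlapped. The mean in siZNF326 was 7.78 ± 0.18 against 6.82 ± 0.18 in siCTR (SD, n = 3 each), a difference of 0.96 (SE 0.22, 95% interval 0.44 to 1.48) or 1.94-fold, which did not pass (limma adjusted p = 0.249, unadjusted p = 0.00293). After quantile normalization the difference was 0.81 and passed (limma adjusted p = 0.0370). With arrays centred on their medians it was 0.87 (limma adjusted p = 0.0815).

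In siDBC1 the mean of SESN1 was 7.06 ± 0.45 (SD, n = 3), 0.24 above siCTR (SE 0.22, 95% interval −0.28 to 0.76, limma adjusted p = 0.968). That value rested on single arrays: it was 0.48 without siDBC1 replicate 2 and 0.041 without siDBC1 replicate 3. The direct difference between siZNF326 and siDBC1 was 0.72 (SE 0.22, 95% interval 0.20 to 1.24) or 1.64-fold (limma adjusted p = 0.624, unadjusted p = 0.0131). It was 0.92 without siDBC1 replicate 3 and 0.47 without siDBC1 replicate 2.

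SESN3, the FOXO-linked sestrin, had higher means after both siRNAs with wide spread. It read 7.95, 7.48 and 8.46 in siDBC1, 8.17, 7.74 and 7.76 in siZNF326, and 7.14, 7.37 and 7.70 in siCTR (probe set 3387259). The siZNF326 arrays lay just above the siCTR arrays, 7.74 against 7.70 at the closest, and the siDBC1 arrays overlapped them. The difference from siCTR was 0.56 (SE 0.26, 95% interval −0.046 to 1.17, limma adjusted p = 0.850) in siDBC1 and 0.49 (SE 0.26, 95% interval −0.12 to 1.10, limma adjusted p = 0.650) in siZNF326. After quantile normalization the SE was 0.14, with differences of 0.55 and 0.35 that did not pass (limma adjusted p = 0.196 and 0.400). As deposited, the difference in siDBC1 was 0.81 without replicate 2 and 0.31 without replicate 3 of that group. Thus the 3 sestrins had different orders of groups: SESN2 was highest in siCTR, SESN1 in siZNF326, and for SESN3 the siDBC1 and siZNF326 means differed by less than the SD of either group.

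DEPTOR, TSC1 and TSC2 form the last group. DEPTOR, the inhibitor bound to mTOR, read 6.46, 5.90 and 6.52 in siDBC1, 6.60, 6.28 and 6.50 in siZNF326, and 6.74, 6.51 and 6.93 in siCTR (probe set 3113280). Its means were below siCTR. As deposited, the groups touched or overlapped: 6.52 in siDBC1 and 6.60 in siZNF326 exceed the lowest siCTR array. The difference was −0.43 (95% interval −0.88 to 0.0076, limma adjusted p = 0.812) in siDBC1 and −0.27 (95% interval −0.71 to 0.17, limma adjusted p = 0.720) in siZNF326. Without siDBC1 replicate 2 the first was −0.24. The second was −0.17 without siCTR replicate 3 and −0.18 without siZNF326 replicate 2. With the array median subtracted, every siRNA array lay below every siCTR array, at most 0.74 against at least 0.81. After quantile normalization the differences were −0.46 and −0.40, and neither passed (limma adjusted p = 0.253 and 0.285, unadjusted p = 0.00657 and 0.0148).

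TSC1, the scaffold that stabilises TSC2, read 6.58, 6.23 and 6.97 in siDBC1, 7.04, 6.55 and 6.58 in siZNF326, and 6.42, 6.46 and 6.68 in siCTR (probe set 3228373). The 3 groups overlapped. The difference from siCTR was 0.071 (95% interval −0.41 to 0.55) in siDBC1 and 0.20 (95% interval −0.28 to 0.69) in siZNF326, with limma adjusted p = 0.999 and 0.798. In siZNF326 it was 0.045 without replicate 1 of that group.

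TSC2, the subunit that acts on RHEB, had the narrowest intervals on the deposited values. It read 7.77, 7.71 and 7.78 in siDBC1, 7.72, 7.72 and 7.60 in siZNF326, and 7.58, 7.72 and 7.96 in siCTR (probe set 3644375). The siCTR arrays covered the whole range of the other 2 groups. The interval of the fold over siCTR was 0.842 to 1.18 in siDBC1 and 0.802 to 1.12 in siZNF326, tighter than in the other 6 genes. The limma adjusted p was 0.999 and 0.850. That order of tightness turned on the scaling. After quantile normalization the SE of TSC2, 0.142, was the largest among the members, with SESN3 next at 0.138. With arrays centred on their medians it was 0.111, above 0.101 for SESN2. A second probe set carries the symbols NTHL1 and TSC2, could not be assigned to either, and differed from siCTR by 0.18 (95% interval −0.064 to 0.43) in siDBC1 and 0.051 (95% interval −0.20 to 0.30) in siZNF326.

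**Figure D2:**
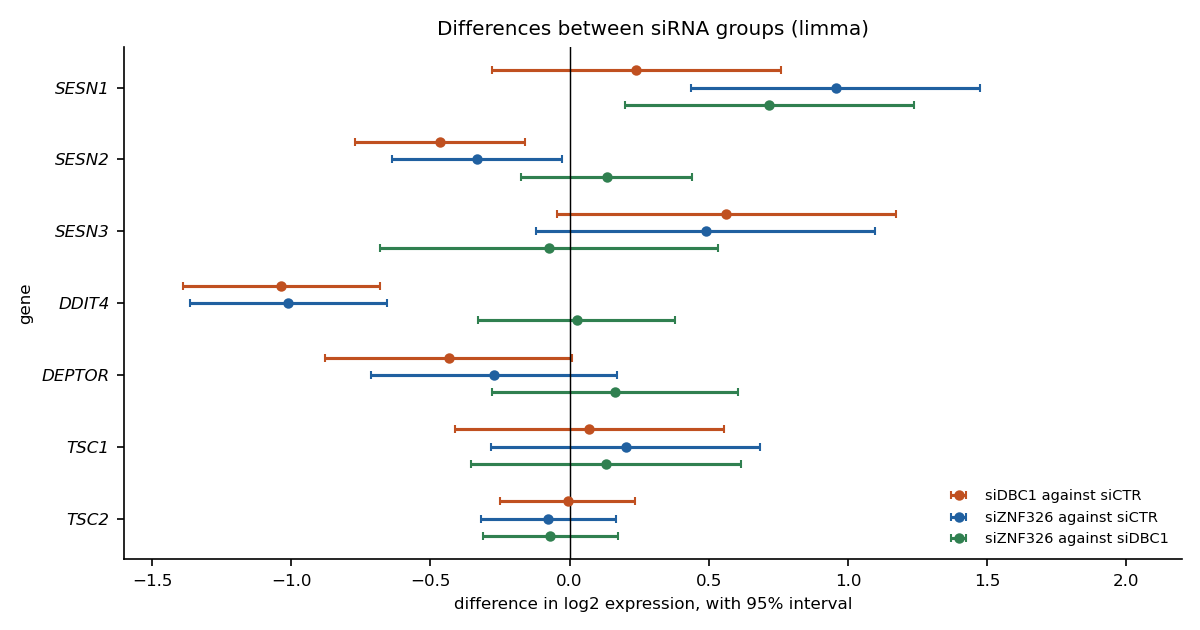
Differences in log2 expression with 95% intervals from limma (x axis) for each of the 7 genes (y axis), for siDBC1 against siCTR, siZNF326 against siCTR and siZNF326 against siDBC1. The intervals of DDIT4 reach from −1.39 to −0.66 for the siRNAs against siCTR, and those of TSC2 cross 0 in all 3 comparisons.

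Counted over the set, 0 of 7 genes passed an adjusted p of 0.05 in any of the 3 comparisons. Over all probe sets limma called 0.0363% in siDBC1 against siCTR, 0.15% in siZNF326 against siCTR and 0.00909% in siZNF326 against siDBC1. At an unadjusted p under 0.05 the counts were 2 of 7 in siDBC1 (DDIT4 and SESN2, where 6.18% of all probe sets did so), 3 of 7 in siZNF326 (DDIT4, SESN2 and SESN1, 8.65%) and 1 of 7 between siZNF326 and siDBC1 (SESN1, 7.31%). Arrays of siDBC1 lay below all siCTR arrays for 2 of 7 genes (3.66% of probe sets). Arrays of siZNF326 lay below siCTR for 2 of 7 (5.27%) and above it for 2 of 7 (SESN1 and SESN3, 12.9%), and above siDBC1 for 1 of 7 (SESN1, 5.21%). On the deposited values DDIT4 and SESN2 were the 2 of 7 genes with all siDBC1 and all siZNF326 arrays below all siCTR arrays. That pattern held for 1.58% of probe sets, and both comparisons use the same siCTR arrays. The median difference of the 7 genes was −0.0062 in siDBC1 and −0.076 in siZNF326, beside 0.014 and 0.032 over all probe sets. Members thus differed in sign, 3 above and 4 below siCTR in each comparison. The balance over all probe sets in siZNF326, 20 called higher and 13 lower, was 89 and 107 after quantile normalization and 57 and 62 with centred arrays. Between siZNF326 and siDBC1 it was 1 higher and 1 lower, and 18 and 10 after quantile normalization.

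Within siDBC1 the deposited values ranked the arrays alike for every member. Replicate 2 was the lowest siDBC1 array for 7 of 7 genes, as it was for 57.2% of all probe sets. Replicate 3 was the highest for 7 of 7, against 56.6% of all probe sets. With the array median subtracted, replicate 2 stayed lowest except for TSC2, at 2.13 there against 2.03 and 1.89. Replicate 3 was then highest for SESN1, SESN2, SESN3 and TSC1, but not for DDIT4, DEPTOR and TSC2. In siCTR replicate 3 was the highest for 6 of 7 genes (60.4% of probe sets), and in siZNF326 replicate 1 for 7 of 7 (54.1%). Ties count in these shares, and TSC2 had the same value, 7.72, on siZNF326 replicates 1 and 2. The part of this shared array pattern in the members' differences was not tested beyond the centred and quantile-normalized values given above.

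Genes under the same regulators were set beside the members. The ATF4 targets were CHAC1, ASNS, DDIT3, SLC7A11 and PSAT1, which act in glutathione breakdown, asparagine synthesis, stress-induced death, cystine import and serine synthesis. All 5 lay below siCTR after both siRNAs with no overlap of arrays, a pattern of 1.58% of all probe sets. Their medians were −1.27 in siDBC1 and −1.24 in siZNF326. CHAC1 and ASNS passed in siDBC1, and these and DDIT3 in siZNF326. DDIT4 at −1.04 and −1.01 stood near the size of ASNS at −1.04 and −1.24, and SESN2 at −0.47 and −0.33 was smaller than each of the 5. The ATF4 transcript itself differed by 0.0070 and −5.33e-05. As background, ATF4 is controlled mainly in translation. Its protein was not measured, and a part of ATF4 in these differences was not tested.

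The p53 targets were CDKN1A, MDM2, TP53I3 and BAX, which act in arrest, feedback on p53, redox balance and apoptosis. The means of all 4 stood above siCTR in both comparisons, with medians of 0.85 in siDBC1 and 1.35 in siZNF326, and TP53I3 and CDKN1A passed in siZNF326. SESN1 and the 4 targets had the same order of group means, siZNF326 over siDBC1 over siCTR. MDM2 differed from siCTR by 0.39 in siDBC1 and 1.20 in siZNF326. Between siZNF326 and siDBC1, MDM2 differed by 0.81, CDKN1A by 0.66, TP53I3 by 0.79 and BAX by 0.093, beside 0.72 for SESN1, and none passed in limma. The p53 gene was not analysed here. These lists were chosen with results of the same data known.

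**Figure D3:**
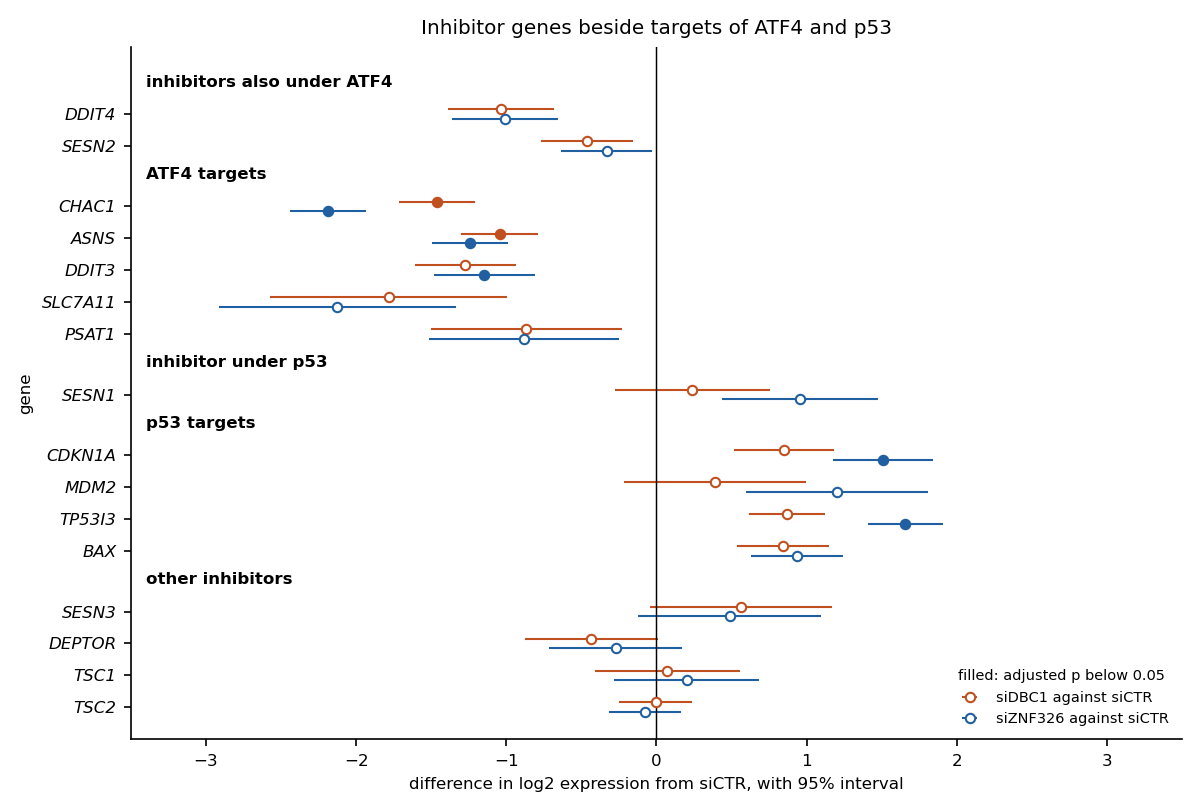
Differences in log2 expression from siCTR with 95% intervals (x axis) for the 7 inhibitor genes and for listed targets of ATF4 and p53 (y axis), in siDBC1 and siZNF326, with filled points where the adjusted p was below 0.05. DDIT4 and SESN2 lie on the side of the ATF4 targets, whose medians were −1.27 and −1.24, and SESN1 on that of the p53 targets, whose medians were 0.85 and 1.35.

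Other regulators known for DDIT4 gave a mixed picture. Among hypoxia targets VEGFA, an angiogenic growth factor also raised by ATF4, differed by −1.21 in siDBC1, where it passed (limma adjusted p = 0.0494), and by −0.97 in siZNF326 (limma adjusted p = 0.0526). NDRG1, ADM and BNIP3 differed by −0.52, 0.17 and −0.51 in siDBC1 and by −0.0044, 0.049 and 0.074 in siZNF326. The glucocorticoid target TSC22D3 differed by −0.85 in siDBC1 (limma adjusted p = 0.281) and −0.11 in siZNF326, and PER1, a clock gene and glucocorticoid target, by 0.031 and 0.022. Measured were 4 of 5 listed hypoxia targets and 2 of 3 listed glucocorticoid targets. Among them VEGFA alone had all arrays of both siRNAs below siCTR, and a cause was not tested. Of the FOXO genes tied to SESN3, FOXO1 differed by 0.14 and 0.033, and FOXO4 by 0.16 and 0.57 (limma adjusted p = 0.462 in siZNF326). HIF1A, the hypoxia factor, differed by 0.48 and 0.55, and NR3C1, the glucocorticoid receptor, by −0.29 and 0.26. EIF2AK3, a kinase that acts upstream of ATF4, differed by 0.020 and 0.17. Of the 10 measured genes in the list of regulators, 9 had a mean above siCTR in each comparison. That list had medians of 0.15 in siDBC1 and 0.24 in siZNF326, beside 0.014 and 0.032 over all probe sets. None of its genes passed in limma.

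The rest of the mTORC1 pathway was counted from 6 lists by role, with 65 of 83 genes measured. In all 3 comparisons 0 of 65 passed in limma. At an unadjusted p under 0.05, 2 were higher and 5 lower in siDBC1, and 4 were higher and 3 lower in siZNF326, where 3.63% and 2.55%, and 6.13% and 2.52%, of all probe sets were so. Between siZNF326 and siDBC1, 8 were higher and 1 lower, where 4.88% and 2.43% of all probe sets were so. None of 9 measured genes of the mTOR complexes passed. MTOR, the kinase, differed by 0.16 and 0.27, RPTOR, which brings substrates to it, by 0.049 and 0.045, and RICTOR, of the second mTOR complex, by 0.28 and 0.59, in siDBC1 and siZNF326 in that order. AKT1S1, an inhibitory subunit, differed by 0.060 and 0.25 (limma adjusted p = 0.591 in siZNF326). PRR5L, a partner of the second complex, differed by 0.15 and 0.062, and the assembly factors TELO2 and TTI1 by 0.10 and −0.053 in siDBC1 and by −0.029 and 0.20 in siZNF326.

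Among genes of amino acid sensing, RRAGA, a Rag GTPase, differed by 0.47 in siDBC1 (limma adjusted p = 0.617) and 0.31 in siZNF326, and RRAGB, its close relative, by 0.065 and 0.68. RRAGC, a Rag partner of both, differed by −0.090 and 0.29, and the Ragulator subunits LAMTOR3 and LAMTOR5 by −0.11 and 0.12 in siDBC1 and by 0.58 and 0.25 in siZNF326. WDR59, of GATOR2, differed by 0.16 and −0.056. RRAGC differed by 0.38 and LAMTOR3 by 0.69 between siZNF326 and siDBC1, without overlap, and neither passed in limma. The list's median was 0.067 and 0.19. The inhibitory GATOR1 and KICSTOR genes, 5 of 10 measured, had medians of −0.12 and −0.099. KICS2, a KICSTOR subunit, lay below siCTR without overlap after both siRNAs, by −0.23 in each (limma adjusted p = 0.892 and 0.645). KPTN, of the same complex, differed by 0.16 and 0.13. The genes NPRL2, NPRL3 and DEPDC5, which form GATOR1, differed by −0.14, −0.12 and 0.054 in siDBC1 and by −0.099, −0.13 and 0.20 in siZNF326.

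Among the growth factor genes TRIB3, an ATF4 target whose protein binds AKT, lay below siCTR. It read 7.05, 7.05 and 7.05 in siDBC1, 6.83, 6.88 and 6.76 in siZNF326, and 7.48, 7.69 and 8.09 in siCTR. The groups did not overlap, and the differences of −0.70 and −0.93 did not pass (limma adjusted p = 0.313 and 0.0789). DDIT4L, the paralog of DDIT4, differed by 0.17 and −0.0037 (limma adjusted p = 0.968 and 0.999). RHEB, the direct activator of mTORC1, differed by −0.55 and −0.51 with overlap. The kinase gene AKT2 differed by 0.13 and 0.13, and PIK3R1, a regulatory subunit of PI3K, by −0.057 and 0.53.

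AMPK inhibits mTORC1 when energy is low and acts in part through TSC2. Its subunit PRKAG1 read 7.90, 7.45 and 8.18 in siDBC1, against 8.47, 8.47 and 8.67 in siCTR, with 8.96, 8.68 and 8.48 in siZNF326. The siDBC1 arrays were below all others, with a difference from siCTR of −0.69 (limma adjusted p = 0.568). The catalytic subunit PRKAA1 differed by −0.38 and 0.44, and PRKAA2 by −0.067 and −0.24. PRKAG1 differed by 0.86 and PRKAA1 by 0.82 between siZNF326 and siDBC1, without overlap (limma adjusted p = 0.432 and 0.624). PRKAB1, a scaffold subunit, differed from siCTR by 0.16 and 0.26, and STRADB, a partner of LKB1, by 0.14 and −0.22. The list's median was −0.067 in siDBC1 and 0.17 in siZNF326.

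Among substrates and outputs, EIF4EBP1, the translation repressor that mTORC1 phosphorylates and an ATF4 target, lay below siCTR after both siRNAs. It read 7.77, 7.75 and 7.98 in siDBC1, 7.76, 7.68 and 7.61 in siZNF326, and 8.26, 8.21 and 8.76 in siCTR. The siRNA groups lay below siCTR without overlap, at −0.58 and −0.73 (limma adjusted p = 0.491 and 0.177). GRB10, an adaptor that mTORC1 stabilises, differed by −0.49 and −0.40, also without overlap (limma adjusted p = 0.482 and 0.399). EIF4G1, a scaffold of translation initiation, differed by 0.42 and 0.38 (limma adjusted p = 0.606 and 0.435). ATG13, which starts autophagy, differed by 0.59 and TFE3, a factor for lysosome genes, by 0.21 between siZNF326 and siDBC1, without overlap (limma adjusted p = 0.658 and 0.678). Over the whole list the medians were −0.12 and 0.019.

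**Figure D4:**
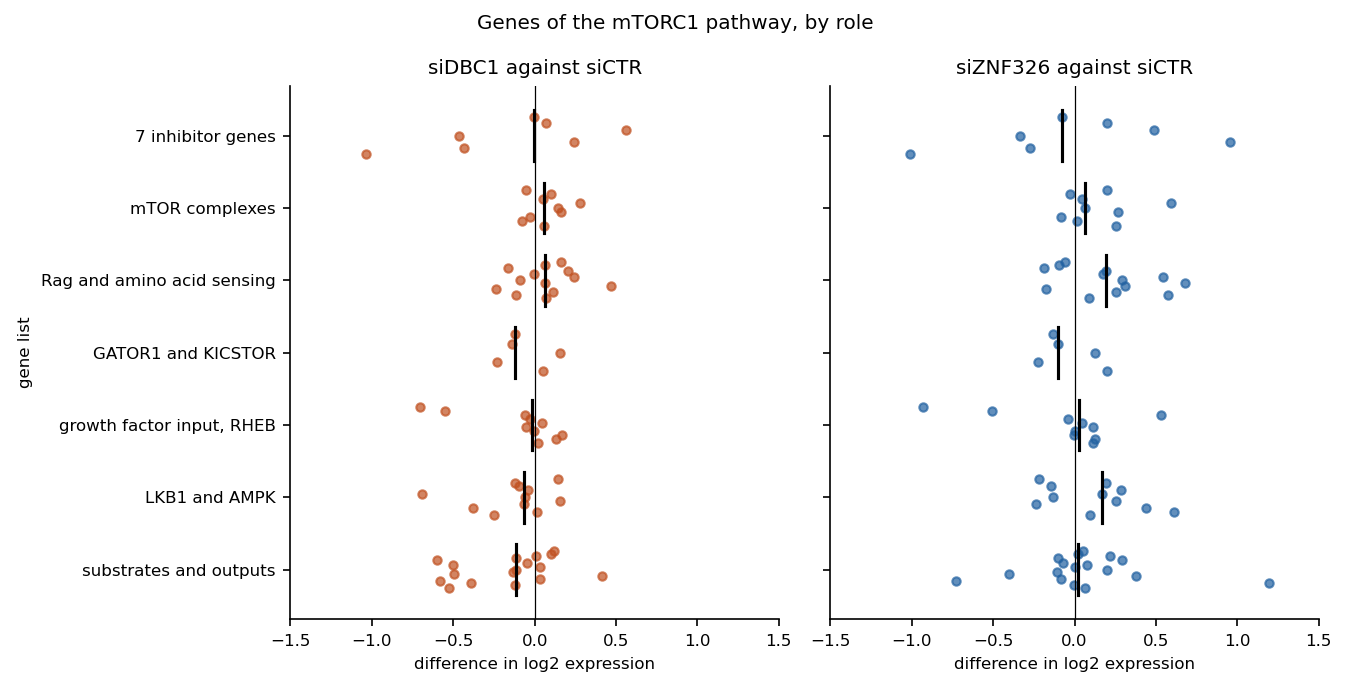
Differences in log2 expression (x axis) of every measured gene in 6 lists of the mTORC1 pathway and of the 7 inhibitor genes (y axis, by list), in siDBC1 against siCTR and siZNF326 against siCTR, with 1 point per gene and a bar at the median. Medians of the 6 lists lie between −0.12 and 0.19.

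The genes whose 9 values were most like a member's were named by Pearson's r among 14414 probe sets with 1 symbol, as a description over 9 arrays that share their group means and array levels. For DDIT4 they were EIF1 (0.969), CBS (0.966) and ASNS (0.965), of which CBS, an enzyme of cysteine synthesis, and ASNS belong to amino acid metabolism. For SESN2 they were RNF41 (0.976), the stress regulator NUPR1 (0.973) and RPS6KA2 (0.970). For SESN1 they were FBXW7 (0.991), a ubiquitin ligase subunit, RBPJ (0.987), the transcription factor of Notch signalling, and PHTF1 (0.986). Leaving out the 2 arrays farthest from the member's median gave r from 0.880 to 0.986 for these 9 genes. For SESN3 they were ARFGEF2, TDG and AREL1 (0.985 to 0.987), for DEPTOR ANKH, AKIRIN2 and TPD52L1 (0.967 to 0.984), for TSC1 ARFGEF1, CPNE8 and POLD3 (0.994 to 0.997) and for TSC2 MEN1, NCAPH2 and BSG (0.963 to 0.988). Among the members, SESN2 followed DEPTOR (0.882) and DDIT4 (0.866), SESN3 followed TSC1 (0.842), and SESN1 and DDIT4 had an r of −0.45.

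**Figure D5:**
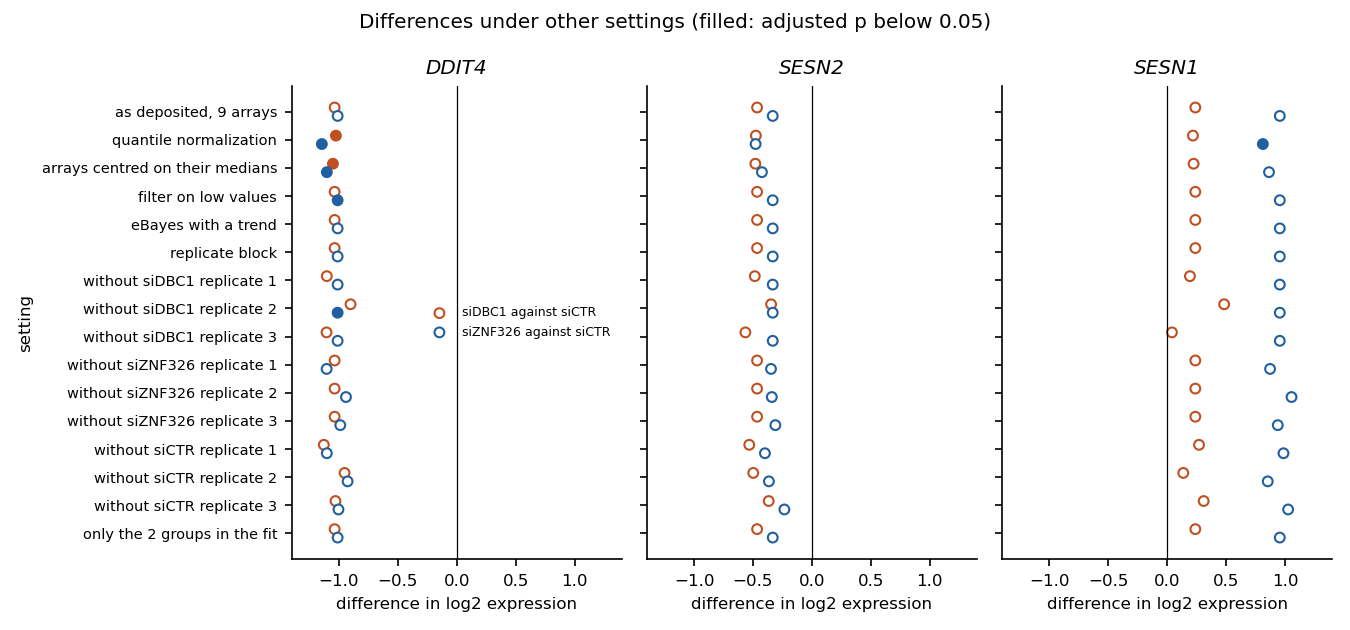
Differences in log2 expression from siCTR (x axis) of DDIT4, SESN2 and SESN1 with the values as deposited and under 15 other settings (y axis), with filled points where the adjusted p was below 0.05. DDIT4 stays between −1.14 and −0.90, and SESN1 in siZNF326 between 0.81 and 1.06.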

How the data were processed

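The 9 arrays were analysed from the log2 expression values that the authors deposited, made with RMA on an hg18 annotation, per the submitters' processing notes. That the log base is 2 follows from RMA and from values between 0.333 and 13.4. The RMA software, its version and its filters are not given in the sources used here. Detection values were not used, so levels near background were not marked. Samples were grouped by title. Of 22011 probe sets, 14432 carried 1 symbol, 2408 several and 5171 none, and one with several symbols was not assigned to a gene. A linear model with 3 groups was fitted to all probe sets with limma 3.58.1 (lmFit, eBayes) in R 4.3.3. Tests were two-sided and adjusted by Benjamini and Hochberg over all probe sets within each comparison, with calls made at an adjusted p under 0.05. The script was tested on simulated data. Where a gene had several probe sets, the one with the highest mean stood for it. Named were the 7 members, the siRNA targets, the called genes of each list and up to 3 with the smallest p per comparison, the target lists, and the 3 genes most like each member. RPTOR, PRKAA2 and ATF4 were also named, after their values were seen. The members and lists were chosen with earlier results of these data known. Alternatives were quantile normalization, centring each array on its median, leaving out probe sets with a mean below the median, a variance trend, a replicate block, fits of 2 groups and leaving out each array.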

Additional observations from a re-analysis of the deposited data

How the results depend on the processing

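Calls over all probe sets numbered 8 in siDBC1 against siCTR, 33 in siZNF326 against siCTR and 2 in siZNF326 against siDBC1. In that order they were 69, 196 and 28 after quantile normalization (17, 89 and 18 of them higher), 46, 119 and 9 with centred arrays, and 0, 5 and 0 with only the 2 groups in the fit, where limma gave 1100, 2844 and 1118 at an unadjusted p under 0.05. The filter on low values gave 68 in siZNF326 against siCTR, and a variance trend gave 4 in siDBC1 against siCTR. Leaving out 1 array gave 0 to 4, 1 to 64 (64 without siDBC1 replicate 2) and 0 to 1. Members called numbered 0 in each comparison, 1 in siDBC1 after quantile normalization and 1 after centring (DDIT4), and in siZNF326 2 after quantile normalization (SESN1 and DDIT4), 1 after centring, 1 with the filter and 0 to 1 without 1 array, the 1 being DDIT4 without siDBC1 replicate 2. Arrays with the same replicate number did not deviate together in every pair (r of deviations −0.30 to 0.40, 3 of 9 over 0.1, and 9 of 18 best matches to the own number). The replicate block gave 0, 1 and 0 calls in limma (1360, 2007 and 1769 at an unadjusted p under 0.05) and 0 members. Signs turned for small differences. Leaving out 1 array gave −0.092 to 0.098 for TSC2 and −0.12 to 0.25 for TSC1 in siDBC1, and −0.16 to 0.028 for TSC2 in siZNF326. Between siZNF326 and siDBC1 it gave −0.11 to 0.096 for DDIT4, −0.035 to 0.28 for DEPTOR, −0.052 to 0.32 for TSC1 and −0.32 to 0.18 for SESN3. There SESN2 was −0.0023 and DDIT4 −0.12 after quantile normalization, and DDIT4 −0.052 with centred arrays. The cause was not tested. DDIT4, SESN1, SESN2, SESN3 and DEPTOR kept their sign against siCTR in both siRNA groups in all 15 settings.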

Other observations

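TSC1 followed a pattern that many probe sets shared across the 9 arrays: 13.0% of 14414 probe sets with 1 symbol had an r above 0.9 with it, as a description, against 0.354% with DDIT4, 0.735% with SESN2 and 2.44% with SESN1. EIF4E, the cap-binding protein that EIF4EBP1 represses, had the widest spread of the listed substrates. It read 4.96, 3.42 and 5.79 in siDBC1, 7.16, 5.99 and 5.78 in siZNF326, and 5.59, 4.33 and 5.43 in siCTR, and its difference of 1.20 in siZNF326 against siCTR did not pass (limma adjusted p = 0.652).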
